A study of Homo sapiens with 12 samples.

Results

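Tumour cells can hold back immune cells through molecules on their surface, and 7 genes for such molecules were followed here in breast cancer cells treated with Paclitaxel. CD274 and PDCD1LG2 encode the ligands of the T cell receptor PD-1. CD276 encodes B7-H3, a relative of these ligands whose receptor is not settled. PVR encodes the poliovirus receptor, which is bound by the lymphocyte receptors TIGIT, CD96 and CD226. CD47 encodes the surface protein that macrophages read through SIRPA. NT5E encodes CD73, the enzyme that makes adenosine outside the cell, and LGALS9 encodes galectin-9, a sugar-binding ligand of TIM-3. The genes were chosen by name, as 7 of 63568 identifiers in the count tables, and all 7 were among the 25249 that passed a filter on low counts.

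Bulk RNA was sequenced in 12 libraries of MDA-MB-231, a human triple negative breast cancer line that carried a nuclear GFP here, grown as a single cell type in droplets of Matrigel. Each of 6 conditions held 2 libraries. C1 was untreated and taken on day 2, C2 was untreated and taken on day 4, and the other 4 conditions received Paclitaxel, a drug that binds microtubules, at 0.0005, 0.005, 0.05 or 0.5 μM and were taken on day 4. The genotype is labelled wild type in every library. The labels put the drug on day 2, which is used here, while the culture methods, which also cover imaging, give day 5, a day after the RNA was taken. A single line was used and no immune cell is named in the culture. The 2 libraries of a condition are described as biological replicates.

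The libraries held between 38380629 and 79169121 counts. The defining markers of the line had means of 1057 CPM (the count scaled by the size of the library) for VIM and 280 CPM for CD44 against 0.276 CPM for ESR1 and 0.0297 CPM for PGR. ERBB2, the third receptor gene by which triple negative tumours are defined, was at 32.8 CPM, near the level of CD274, and the epithelial marker EPCAM was at 5.06 CPM. The C1 libraries stood apart from each other. The log2 difference between GC-rich and GC-poor genes was 0.39 in C1 replicate 1 and −0.49 in C1 replicate 2, and lay between −0.20 and 0.28 in the other 10 libraries. C1 replicate 2 also had the highest mitochondrial share, 7.74% of counts. The summed level of 13 immune cell markers was 2.83 to 3.27 CPM in untreated and 5.22 to 8.77 CPM in treated libraries, and 7 of the 7 markers tested were higher in treated libraries, where 13.1% of all tested genes were. Of these 7, 5 were under 1 CPM, a range in which 22.2% of tested genes were called higher, and 4 of the 7 were still called against C2 alone. ITGAM, an integrin chain of myeloid cells, differed most, from a mean of 0.0446 CPM in untreated to 1.43 CPM in treated libraries (log2 fold change 4.81, adjusted p = 8.49e-06). ITGAM and PTPRC had at most 0.0920 and 0.129 CPM in any untreated library, so both passed the low-count filter through treated libraries. The T cell marker CD3D (1.55, at most 70 counts) and the B cell marker CD79A (1.94, at most 30 counts) were among the 7, while MS4A1 had no count in any library and CD3E at most 2.

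Levels of different genes were compared per length of exon, as FPKM (the CPM divided by the exon length in kilobases). NT5E had the highest level of the 7, a mean of 249 FPKM over 12 libraries, above 99.4% of the tested genes. CD276 followed with 12.3 FPKM, then CD47 with 8.64, CD274 with 7.78 and PVR with 5.51 FPKM. PDCD1LG2 was low at 0.741 FPKM, and LGALS9 was at 0.0776 FPKM, above only 10.04% of the tested genes. NT5E was 20.3-fold above CD276, and their ranges did not meet. PVR and PDCD1LG2, and PDCD1LG2 and LGALS9, were separated in the same way. The ranges of CD276 and CD47, of CD47 and CD274, and of CD274 and PVR overlapped, although CD276 was above CD47 in 12 of 12 libraries, CD47 above CD274 in 10 and CD274 above PVR in 11. The exon length merges all annotated exons, 10427 bases for PVR and 4108 for CD274. The longest transcripts of PVR and CD274 have 6465 and 3634 bases, so their order rests on the length used.

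**Figure D1:**
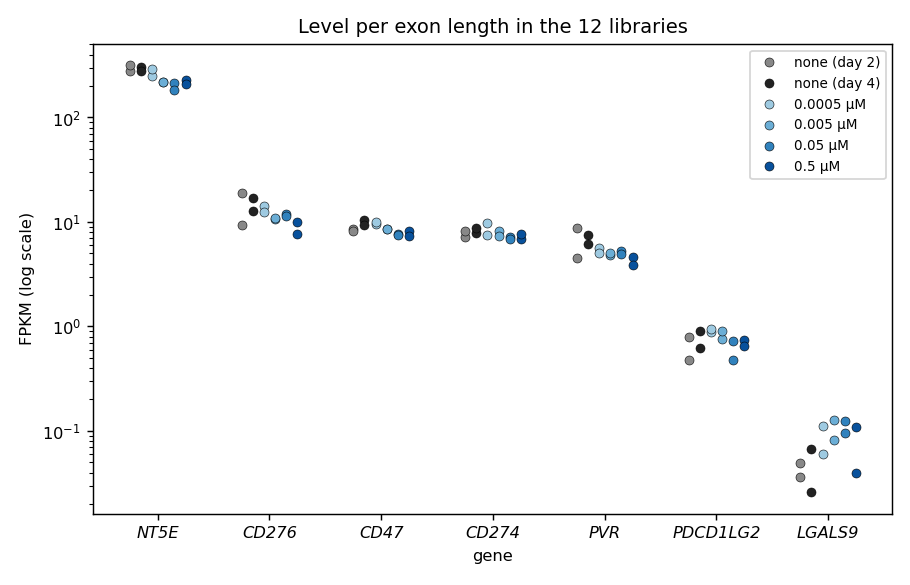
Level per exon length (FPKM, log scale) of the 7 genes; each point is 1 of 12 libraries, coloured by condition. NT5E stands 20.3-fold above CD276, 4 genes share the range around 5.51 to 12.3 FPKM, and PDCD1LG2 and LGALS9 lie below 1 FPKM.

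The promoters of 3 genes are shown, that of CD274, the only 1 of the 6 members with a promoter entry that held an interferon motif, and those of NT5E and PVR, the members called lower with Paclitaxel. The sequences are the 250 bases before the start of the gene in RefSeq on GRCh38.p14, and capitals mark matches to an interferon motif, TTTC and a second TTTC with 2 bases between them, and to the GC box GGGCGG, searched on both strands.
CD274 promoter, chr9:5450292-5450541, plus strand: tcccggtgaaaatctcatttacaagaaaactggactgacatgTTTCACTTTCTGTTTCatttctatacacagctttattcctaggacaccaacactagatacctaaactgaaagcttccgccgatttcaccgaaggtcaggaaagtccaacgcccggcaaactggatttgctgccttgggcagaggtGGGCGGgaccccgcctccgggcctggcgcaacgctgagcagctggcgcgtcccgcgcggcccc
NT5E promoter, chr6:85449833-85450082, plus strand: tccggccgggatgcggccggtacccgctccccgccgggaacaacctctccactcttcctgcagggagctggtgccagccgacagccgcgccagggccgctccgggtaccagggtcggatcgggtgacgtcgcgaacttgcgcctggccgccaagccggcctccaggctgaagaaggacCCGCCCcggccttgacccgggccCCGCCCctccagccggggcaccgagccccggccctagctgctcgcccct
PVR promoter, chr19:44643660-44643909, plus strand: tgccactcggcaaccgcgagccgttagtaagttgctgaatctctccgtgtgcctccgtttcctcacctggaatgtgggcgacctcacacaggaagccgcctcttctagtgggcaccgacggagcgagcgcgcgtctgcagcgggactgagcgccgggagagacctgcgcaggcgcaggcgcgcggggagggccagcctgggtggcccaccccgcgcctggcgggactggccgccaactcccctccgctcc
The CD274 promoter held 2 overlapping matches to the interferon motif, in TTTCACTTTCTGTTTC, which is of the kind bound by interferon regulatory factors. Of 35116 promoters, 3.02% held at least 1 such match. It also held 1 match to the STAT motif TTCNNNGAA, found in 6.57% of promoters and not set in capitals, and 1 GC box, found in 42.6%. The NT5E promoter held 2 GC boxes and no match to the other 2 motifs, and the PVR promoter held no match to any of the 3. Of the members not shown, CD276 (with 2 promoters), CD47 and LGALS9 also held no match to the interferon or the STAT motif. CD276 and CD47 held between 2 and 7 GC boxes, and LGALS9 none. These are matches of letters and not measured binding.

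The level of CD274, the gene for PD-L1, did not change detectably with Paclitaxel. CD274 lies at chr9:5450503-5470566 of GRCh37. Its CPM values were 29.5 and 33.8 in C1, 32.2 and 35.7 in C2, and 31.0 and 40.1 at 0.0005 μM. They were 33.4 and 30.4 at 0.005 μM, 29.7 and 28.2 at 0.05 μM, and 28.1 and 31.3 at 0.5 μM. The highest library was a treated one, at the lowest dose, and the untreated and treated libraries overlapped, although both libraries of the 2 upper doses were below both of C2. So were 39.4% of tested genes of at least 5 CPM at 0.05 μM and 42.8% at 0.5 μM. The 8 treated libraries differed from the 4 untreated ones by a log2 fold change of −0.06 (SE 0.10; adjusted p = 0.722 in the quasi-likelihood test of edgeR, adjusted after Benjamini and Hochberg). The 95% interval of that log2 fold change ran from −0.27 to 0.16. Against C2, which serves all 4 doses, the log2 fold changes were 0.06, −0.09, −0.23 and −0.19 from the lowest to the highest dose, with adjusted p-values from 0.421 to 0.868.

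PDCD1LG2, the gene for PD-L2, is the next ligand gene on the same chromosome, at chr9:5510531-5571282 of GRCh37. Its counts were between 65 and 179 per library, or 1.17 to 2.19 CPM in untreated and 1.15 to 2.28 CPM in treated libraries. The groups overlapped, and the log2 fold change of treated against untreated libraries was 0.13 (SE 0.20; adjusted p = 0.663). Its 95% interval was −0.28 to 0.55. Within 500000 bases on either side of CD274, JAK2, the kinase of the interferon receptors, PLGRKT, RIC1 and KIAA2026 were not called. INSL4, a relaxin family gene at 2.15 CPM, was higher in treated libraries by 0.86 (SE 0.20; adjusted p = 0.00569), and ERMP1, at 23.7 CPM, was lower by a log2 fold change of −0.54 (SE 0.14; adjusted p = 0.00801). The pseudogene IGHEP2, with at most 21 counts, was the other called neighbour.

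Genes that act on CD274 were called lower about as often as other genes of their level. Of 26 tested genes known to control PD-L1, none was higher and 5 were lower in treated than in untreated libraries, beside 13.1% higher and 11.3% lower of all tested genes. All 26 had at least 5 CPM, and of the 12245 tested genes in that range 20.4% were called lower and 4.69% higher. The median log2 fold change was −0.10 for the 26 and −0.14 for that range. CMTM6, which keeps PD-L1 protein at the surface, had 184 to 221 CPM in untreated and 136 to 192 CPM in treated libraries, and 7 of 8 treated libraries lay below all untreated ones (log2 fold change −0.33, SE 0.10, adjusted p = 0.0251). Its relative CMTM4 had 42.6 to 80.4 CPM in untreated and 29.3 to 38.8 CPM in treated libraries, without overlap (−0.69, SE 0.14, adjusted p = 0.00183). The other 3 were HIF1A, the hypoxia factor, with −0.37, EGFR with −0.46, and B3GNT3, a glycosyltransferase that modifies PD-L1, with −0.48. Against C2 alone CMTM4, EGFR and B3GNT3 stayed below the threshold, while CMTM6 (adjusted p = 0.154) and HIF1A (adjusted p = 0.0799) did not. With 1 library left out, EGFR was not called without C1 replicate 1 (−0.29, adjusted p = 0.159) or C2 replicate 1 (0.0843), and CMTM6 not without C1 replicate 2 (0.0647) or C2 replicate 1 (0.0565). B3GNT3 lost its call without C1 replicate 1 (0.112), C2 replicate 1 (0.163), replicate 1 at 0.005 μM (0.0501) or replicate 2 at 0.5 μM (0.0541). The interferon regulatory factor IRF1 (0.34, SE 0.19, adjusted p = 0.204), named here after its values were seen, was not called. With offsets for GC content and length in each library, an alternative added after the data were seen, IRF1 (0.49, adjusted p = 0.0422) and JAK2 (0.24, adjusted p = 0.0349) were called higher and HIF1A was no longer called (−0.25, adjusted p = 0.0804).

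**Figure D2:**
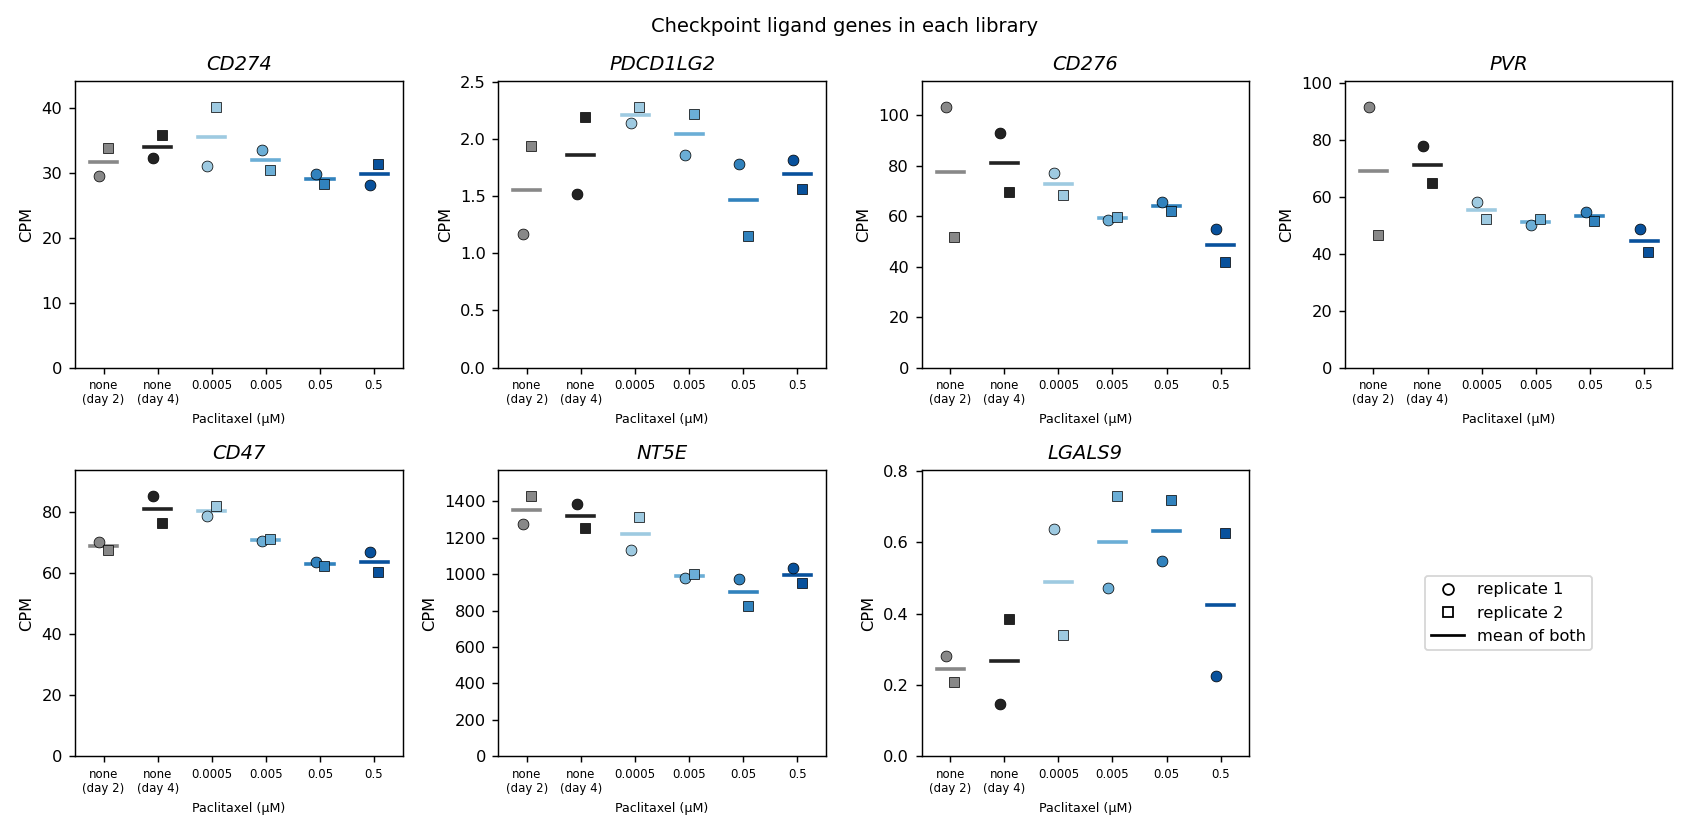
CPM of each gene in each library against condition, from untreated (none) on days 2 and 4 to the 4 doses of Paclitaxel on day 4; circles are replicate 1, squares replicate 2 and lines their mean, on axes that start at 0. CD274 stays between 28.1 and 40.1 CPM, while 7 of 8 treated libraries of NT5E lie below all untreated ones.

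CD276 had lower values at the upper doses and no call in the main fits. The gene lies at chr15:73976307-74006855 of GRCh37. Its CPM values were 103 and 51.6 in C1, 93.1 and 69.4 in C2, and 77.3 and 68.4 at 0.0005 μM. They were 58.5 and 59.8 at 0.005 μM, 65.6 and 62.3 at 0.05 μM, and 55.1 and 41.7 at 0.5 μM. The libraries of the 3 upper doses were all below both C2 libraries, but C1 spanned nearly the whole range by itself. Taken dose by dose, 48.8%, 39.4% and 42.8% of tested genes of at least 5 CPM were below C2 without overlap at these doses. At 0.5 μM the log2 fold change against C2 was −0.75 (SE 0.27; adjusted p = 0.119), and for treated against untreated libraries it was −0.38 (SE 0.16; adjusted p = 0.101). Treated against untreated libraries gave a call without C1 replicate 2 (adjusted p = 0.0146). Without C1 replicate 1 the value at 0.5 μM was −0.75 with an adjusted p = 0.00180, and without C1 replicate 2 the adjusted p was 0.00182: the C1 libraries enter that test through the shared estimate of spread.

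PVR was lower in treated libraries. The gene lies at chr19:45147098-45169430 of GRCh37. Its CPM values were 91.6 and 46.8 in C1, 77.9 and 64.8 in C2, and 58.3 and 52.3 at 0.0005 μM. They were 50.1 and 52.2 at 0.005 μM, 54.9 and 51.6 at 0.05 μM, and 48.7 and 40.6 at 0.5 μM. All 8 treated libraries were below both C2 libraries, while C1 replicate 2 lay among the treated ones. Taken dose by dose from the lowest, 31.5%, 48.8%, 39.4% and 42.8% of tested genes of at least 5 CPM were below C2 without overlap. The log2 fold change of treated against untreated libraries was −0.46 (SE 0.14; adjusted p = 0.0208), a fold of 0.727 (95% interval 0.595 to 0.886). Against C2 alone it was −0.47 (adjusted p = 0.0135). The call was lost without C1 replicate 1 (−0.31, adjusted p = 0.112) and without C2 replicate 1 (−0.41, adjusted p = 0.0679). At 0.5 μM against C2 the value was −0.68 (SE 0.24; adjusted p = 0.124), and without C1 replicate 1 its adjusted p was 0.00119. Of the exon bases of PVR, 121 are shared with CEACAM19, which was at 3.27 CPM.

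CD276 and PVR varied together, and between the C1 libraries also with base composition. Their log2 CPM had a Pearson r of 0.96 over the 12 libraries, which share their depth and scaling. Both were highest in C1 replicate 1, the library richest in GC-rich genes, and both were 2-fold lower in C1 replicate 2, the library poorest in them. Other libraries did not keep this order. Replicate 2 at 0.05 μM, the next richest (0.28), had 62.3 CPM of CD276 and 51.6 CPM of PVR, below their medians of 63.9 and 52.2 CPM. Both genes were lowest in replicate 2 at 0.5 μM (−0.20). With the offsets for GC content and length, CD276 at 0.5 μM was −0.52 (adjusted p = 0.0349) and PVR −0.47 (adjusted p = 0.0463). PVR in treated against untreated libraries was then −0.30 (adjusted p = 0.0156). The direction was the same with and without the offsets, and the size was smaller with them.

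**Figure D3:**
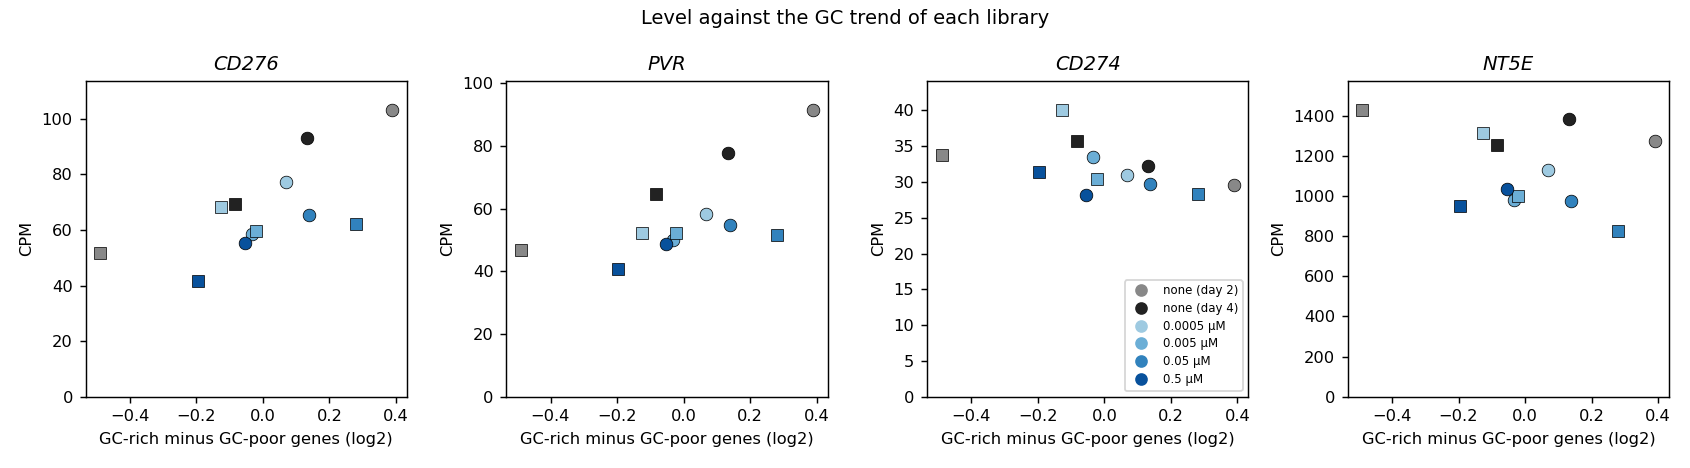
CPM of CD276, PVR, CD274 and NT5E in each library against the GC trend of that library, the log2 difference between the fifth of genes richest in GC and the fifth poorest; circles are replicate 1 and squares replicate 2, coloured by condition. CD276 and PVR are highest in the C1 library at 0.39 and low in the C1 library at −0.49, while CD274 does not follow this order.

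CD47 had lower values at the upper doses and no call in the main fits. The gene lies at chr3:107761938-107810709 of GRCh37. Its CPM values were 70.1 and 67.5 in C1, 85.2 and 76.4 in C2, and 78.7 and 81.7 at 0.0005 μM. They were 70.4 and 71.0 at 0.005 μM, 63.4 and 62.3 at 0.05 μM, and 66.8 and 60.1 at 0.5 μM. Both C2 libraries were above both C1 libraries, and the 3 upper doses were below C2 without overlap. From 0.005 to 0.5 μM, 48.8%, 39.4% and 42.8% of tested genes of at least 5 CPM were below C2 in this way. The log2 fold change against C2 was −0.36 (SE 0.13; adjusted p = 0.101) at 0.05 μM and −0.35 (SE 0.13; adjusted p = 0.125) at 0.5 μM. Against all untreated libraries the treated ones differed by −0.11 (SE 0.10; adjusted p = 0.462). The slope per 10-fold dose within the 8 treated libraries was −0.12 (SE 0.04; adjusted p = 0.0841).

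Of 10 tested partners of CD47, none was higher and 3 were lower in treated libraries, where 11.3% of all tested genes were lower, with a median log2 fold change of −0.30. Of the 7 partners of at least 5 CPM 1 was lower, where 20.4% of all genes in that range were, and the other 2 were under 5 CPM. ITGB3, the integrin chain that pairs with ITGAV, had 4.80 to 9.99 CPM in untreated and 2.92 to 4.51 CPM in treated libraries, without overlap (−0.87, SE 0.18, adjusted p = 0.00227). SIRPA, the receptor of CD47, was low at 3.63 CPM and lower in treated libraries (−0.61, SE 0.21, adjusted p = 0.0436), and CALR, the chaperone whose surface form invites phagocytosis, had −0.41 (SE 0.14, adjusted p = 0.0447). Against C2 alone ITGB3 was still called and SIRPA (adjusted p = 0.184) and CALR (adjusted p = 0.254) were not. With the offsets for GC content and length SIRPA lost its call (−0.46, adjusted p = 0.0593) and CALR kept it (adjusted p = 0.0238). The calls of SIRPA and CALR were also lost without C1 replicate 1 (SIRPA −0.25, adjusted p = 0.366; CALR −0.30, adjusted p = 0.184), without C2 replicate 1, and without any 1 of the 6 libraries of the 3 upper doses (adjusted p from 0.0551 to 0.0882). THBS1, the secreted ligand of CD47, was at 302 CPM and not called (−0.34, SE 0.17, adjusted p = 0.171).

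NT5E, the most abundant of the 7, was lower in treated libraries. The gene lies at chr6:86159302-86205509 of GRCh37. Its CPM values were 1274 and 1429.8 in C1, 1384 and 1255 in C2, and 1131 and 1313 at 0.0005 μM. They were 981 and 1001 at 0.005 μM, 973 and 826 at 0.05 μM, and 1035 and 952 at 0.5 μM. The 6 libraries of the 3 upper doses were all below every untreated library, and replicate 2 at the lowest dose was the treated library that was not. Against C2 only, 48.8%, 39.4% and 42.8% of tested genes of at least 5 CPM were lower without overlap at these 3 doses. The log2 fold change of treated against untreated libraries was −0.38 (SE 0.12; adjusted p = 0.0288), a fold of 0.769 (95% interval 0.645 to 0.916). With the offsets for GC content and length it was −0.31 (adjusted p = 0.0203). Against C2 alone it was −0.35 (adjusted p = 0.111), and it also missed the threshold without C1 replicate 2 (adjusted p = 0.0547), C2 replicate 1 (0.0702) or either library at 0.005 μM (both 0.0502). Against C2 the value nearest to a call was −0.55 at 0.05 μM (SE 0.16; adjusted p = 0.0581).

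Around adenosine, genes were called in both directions. Of 12 tested genes, 2 were higher and 3 lower in treated libraries. The 3 lower ones were among 7 of at least 5 CPM (20.4% of all genes in that range), and the 2 higher ones among 3 under 1 CPM (22.2%). ENPP1, an enzyme that yields the AMP on which CD73 acts, had 291 to 406 CPM in untreated and 139 to 281 CPM in treated libraries, without overlap (−0.77, SE 0.17, adjusted p = 0.00351). SLC29A1, which carries adenosine across the membrane, had −0.45 (SE 0.13, adjusted p = 0.0231), and ENTPD1, the gene for CD39, which acts a step before CD73, had −0.26 (adjusted p = 0.0387), but −0.13 with the offsets (adjusted p = 0.212). DPP4, which binds adenosine deaminase at the surface, was higher, at 0.146 ± 0.0495 CPM in untreated (SD, n = 4) and 0.729 ± 0.152 CPM in treated libraries (SD, n = 8), without overlap (2.28, SE 0.27, adjusted p = 2.8e-05). CD38, an enzyme of the other route to adenosine, was higher too (2.56, adjusted p = 0.000803) at no more than 25 counts in any library. It had at most 0.0702 CPM in untreated libraries and passed the low-count filter through treated ones. DPP4 was near that filter in untreated libraries (0.0920 to 0.211 CPM), so the count under 1 CPM was partly set by it. Against C2 alone ENPP1, DPP4 and CD38 were still called, and SLC29A1 (adjusted p = 0.0876) and ENTPD1 (adjusted p = 0.124) were not. SLC29A1 lost its call without C1 replicate 1 (−0.31, adjusted p = 0.117) or C2 replicate 1 (0.0615). ENTPD1 kept its call only when the library left out was C2 replicate 2, replicate 2 at 0.05 μM or either at 0.5 μM, and otherwise had adjusted p-values from 0.0541 to 0.0889.

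LGALS9 was higher in treated libraries at a level near the limit of detection. The gene lies at chr17:25956824-25976586 of GRCh37 and has the near copies LGALS9B and LGALS9C on the same chromosome. Coding exon 2 of each is shown, from GRCh37, because near copies can limit how the counts of LGALS9 are read. Capitals mark the bases at which the 3 genes are not all alike.
LGALS9 coding exon 2, chr17:25965289-25965380, plus strand: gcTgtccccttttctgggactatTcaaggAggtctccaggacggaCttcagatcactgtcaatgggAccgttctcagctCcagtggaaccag
LGALS9B coding exon 2, chr17:20363665-20363756, minus strand: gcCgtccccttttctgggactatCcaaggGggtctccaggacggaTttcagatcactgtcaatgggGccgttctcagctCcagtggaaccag
LGALS9C coding exon 2, chr17:18387189-18387280, plus strand: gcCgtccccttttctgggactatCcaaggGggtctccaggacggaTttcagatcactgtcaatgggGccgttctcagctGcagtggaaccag
Within these 92 bases LGALS9B differs from LGALS9 at 5 positions and LGALS9C at 6. Over the 10 of 11 coding exons of equal length the identity was 96.29% for LGALS9B and 95.8% for LGALS9C. Of all stretches of 100 bases in the longest LGALS9 transcript, the length of a read, 11.2% occurred in another gene, against 0.361% for PVR and none for the other 5 genes. The genes that share such stretches with LGALS9 are LGALS9C, LGALS9DP and ENSG00000266728, while LGALS9B shares none. ENSG00000266728 overlaps LGALS9 on the same strand in 294 exon bases and had a mean of 0 CPM. The authors kept reads that aligned to 1 place, and whether reads from the shared stretches were counted was not tested.

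The counts of LGALS9 were 20 and 7 in C1, 9 and 21 in C2, and 48 and 20 at 0.0005 μM. They were 40 and 59 at 0.005 μM, 39 and 55 at 0.05 μM, and 15 and 34 at 0.5 μM. In CPM, 6 of 8 treated libraries lay above all untreated ones, and 1 library each at the lowest and the highest dose lay among them. The log2 fold change of treated against untreated libraries was 1.06 (SE 0.33; adjusted p = 0.0278), a fold of 2.08 (95% interval 1.28 to 3.38). Of the 9470 tested genes under 1 CPM, 22.2% were called higher in this comparison. LGALS9B, with at most 38 counts, was called too (1.25, SE 0.33, adjusted p = 0.0114), and LGALS9C was not (0.93, SE 0.42, adjusted p = 0.115). The call of LGALS9 was lost against C2 alone (1.04, adjusted p = 0.138), and without C1 replicate 1, C2 replicate 1, replicate 2 at 0.005 μM or replicate 2 at 0.05 μM (adjusted p from 0.0506 to 0.104). The summed immune markers were higher in treated libraries as given above, and their part in the value of LGALS9, a gene that immune cells also express, was not tested.

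Set side by side, 3 of the 7 genes were called in treated against untreated libraries, NT5E and PVR lower and LGALS9 higher, where 24.4% of all tested genes were called. This comparison had no term for day or dose, and its untreated side includes day 2 while all treated libraries are of day 4. With all treated libraries against C2 alone, PVR stayed called, and NT5E (adjusted p = 0.111) and LGALS9 (adjusted p = 0.138) did not. Among the 12245 genes of at least 5 CPM, the range of 5 of the 7, 20.4% were called lower. Against C2 none of the 7 was called at any dose by edgeR, and 0, 2, 3 and 4 of them had an unadjusted p under 0.05 from the lowest to the highest dose, as did 17.0%, 18.7%, 23.7% and 22.9% of all tested genes. DESeq2 called 1 of the 7 at 0.05 μM and none at the other doses. Of all tested genes edgeR called 2.34%, 3.28%, 8.32% and 6.32%. At 0.5 μM the genes CD274, CD276, CD47, NT5E and PVR had both libraries below both C2 libraries, as did 27.3% of all tested genes and 42.8% of those of at least 5 CPM. The median log2 fold change of the 7 at 0.5 μM was −0.35, beside 0.04 over all tested genes and −0.10 over those of at least 5 CPM. Without C1 replicate 1, or without C1 replicate 2, 3 of the 7 were called at 0.5 μM (CD276, CD47 and PVR), 3 at 0.05 μM (CD47, NT5E and PVR) and 2 at 0.005 μM (CD276 and PVR), all lower. More genes were called in these fits as a whole. Without C1 replicate 1 the share of all tested genes called lower, in the same order of doses, was 9.8%, 9.16% and 6.4%, and without C1 replicate 2 it was 10.2%, 8.6% and 5.96%.

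**Figure D4:**
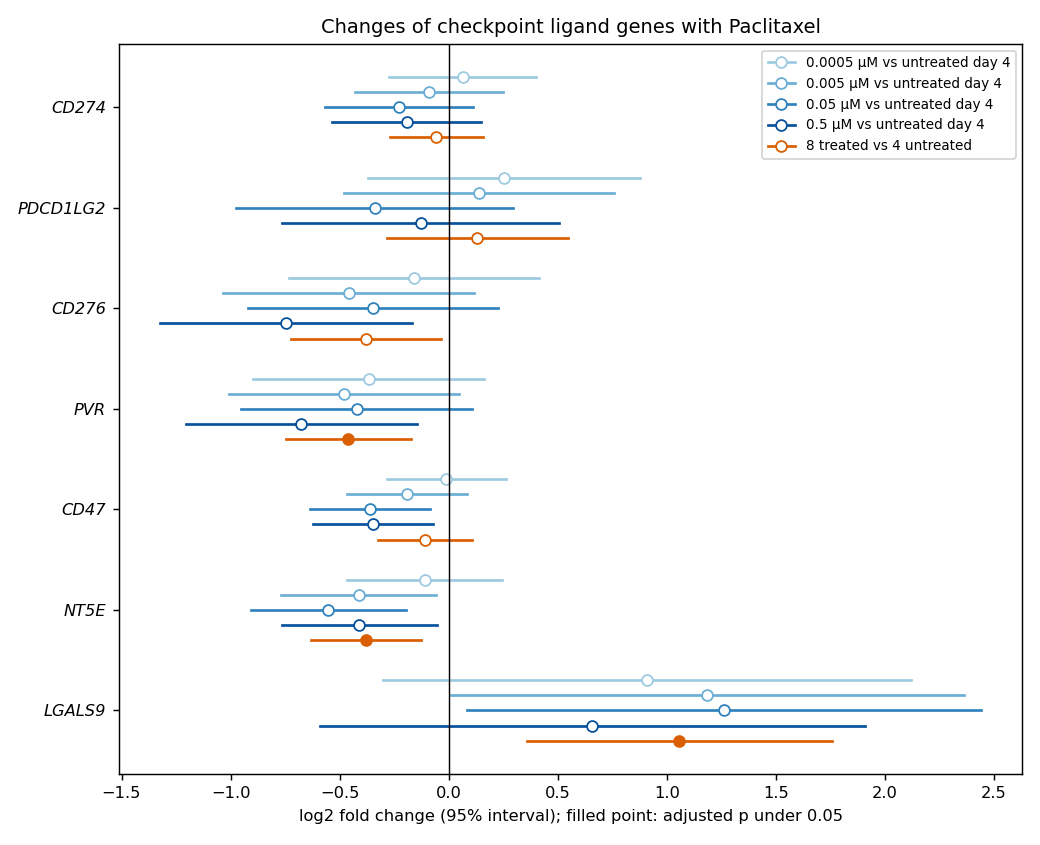
Log2 fold change with its 95% interval for each gene, at each dose against the untreated libraries of day 4 and for the 8 treated against the 4 untreated libraries; filled points passed an adjusted p of 0.05. Filled points appear for PVR (−0.46), NT5E (−0.38) and LGALS9 (1.06), and in the comparison of 8 with 4 libraries only.

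Between the untreated days no member was called, where 0.325% of all tested genes were. The log2 differences of C2 from C1 ran from −0.04 (NT5E) to 0.30 (PDCD1LG2), and 0 of the 7 had an unadjusted p under 0.05 or were called by DESeq2. CD47 was the member whose 2 days did not overlap, with C2 higher by 0.23 (SE 0.13; adjusted p = 0.539), where 15.9% of all tested genes had C2 above C1 without overlap and 15.3% below. CD276 and PVR depended on the C1 library used: without C1 replicate 1 they were called higher in C2, by 0.66 (adjusted p = 0.0308) and 0.61 (adjusted p = 0.0210), and without C1 replicate 2 their log2 differences were −0.32 and −0.33. Within the treated libraries the slope per 10-fold dose was below 0 for all 7 members, from −0.05 for LGALS9 to −0.16 for CD276 (SE 0.05; adjusted p = 0.0808). None was called by edgeR, while 4 had an unadjusted p under 0.05 and DESeq2 called 2. Of all tested genes 47.7% had a slope below 0 (61.1% of those of at least 5 CPM), 18.3% had an unadjusted p under 0.05 and 3.06% were called.

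Ligands outside the 7 were counted from a list in the same way. Of 13 other inhibitory ligands tested, 6 were higher and none lower in treated libraries, with a median log2 fold change of 0.52. Of the 6, 2 were among 7 ligands of at least 5 CPM, where 4.69% of all genes were called higher, and 4 were all the ligands tested under 1 CPM, where 22.2% were. HLA-E, which engages the inhibitory NK cell receptor NKG2A, had 100.5 to 152 CPM in untreated and 142 to 239.5 CPM in treated libraries, and 7 of 8 treated libraries lay above all untreated ones (0.59, SE 0.14, adjusted p = 0.00608). LGALS3, another galectin, had 88.6 to 137 CPM in untreated and 126 to 204 CPM in treated libraries (0.52, SE 0.13, adjusted p = 0.00705). The other 4, VTCN1, HHLA2, NECTIN4 and CD200, had at most 28 counts in any library. They had at most 0.0736 CPM in any untreated library, below the highest CD80 library (0.129 CPM), and CD80 did not pass the low-count filter. They passed it through treated libraries, so that all 4 were called higher was largely set by the filter. LGALS1 at 836 CPM (0.16, SE 0.18) and NECTIN2, the partner of PVR in binding TIGIT and CD226, at 68.2 CPM (−0.24, SE 0.15, adjusted p = 0.280) were not called. Against C2 alone 4 of the 6 were still called, LGALS3 among them, and HLA-E was not (0.45, adjusted p = 0.0741). CD200 lost its call without C1 replicate 1 (adjusted p = 0.0724) or C2 replicate 1 (0.0628).

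Among ligands that activate immune cells, 12 were tested. Of these, 3 were higher and 1 lower in treated libraries (13.1% and 11.3% of all tested genes), and CD80 and CD86, the ligands of CD28, had at most 8 counts. Among the 9 of at least 5 CPM, 2 were higher and 1 lower, where 4.69% and 20.4% of all genes in that range were. ICAM1, the adhesion ligand of LFA-1, was at 10.2 ± 2.05 CPM in C1 and 44.1 ± 0.283 CPM in C2 (SD, n = 2 each), and this rise was called (2.11, SE 0.16, adjusted p = 0.000169). With only the C1 and C2 libraries fitted, no gene was called between the days. ICAM1 was highest at the lowest dose, 123 ± 8.90 CPM, and at 0.5 μM it was 47.9 ± 4.17 CPM, near C2. Against C2 it was called higher at 3 of 4 doses, with log2 fold changes of 1.48 (SE 0.15; adjusted p = 0.000325), 0.80 (adjusted p = 0.0148) and 0.79 (adjusted p = 0.00901), and not at 0.5 μM (0.12, SE 0.15, adjusted p = 0.667). ICOSLG, the ligand of ICOS, was higher in treated libraries (0.92, SE 0.19, adjusted p = 0.00206), as was TNFSF4, the gene for OX40L (0.63, SE 0.18, adjusted p = 0.0192). CD58, the ligand of CD2, was lower, from 54.4 to 77.9 CPM in untreated to between 34.9 and 53.3 CPM in treated libraries, without overlap (−0.49, SE 0.11, adjusted p = 0.00553). With the 8 treated libraries together against C2 alone ICOSLG and CD58 were still called, and ICAM1 (0.89, adjusted p = 0.121) and TNFSF4 (adjusted p = 0.126) were not. ICAM1 also lost its call without C1 replicate 1 (1.31, adjusted p = 0.0672) or C1 replicate 2 (0.0544), and TNFSF4 without C1 replicate 1 (0.0510) or C2 replicate 1 (0.0679).

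**Figure D5:**
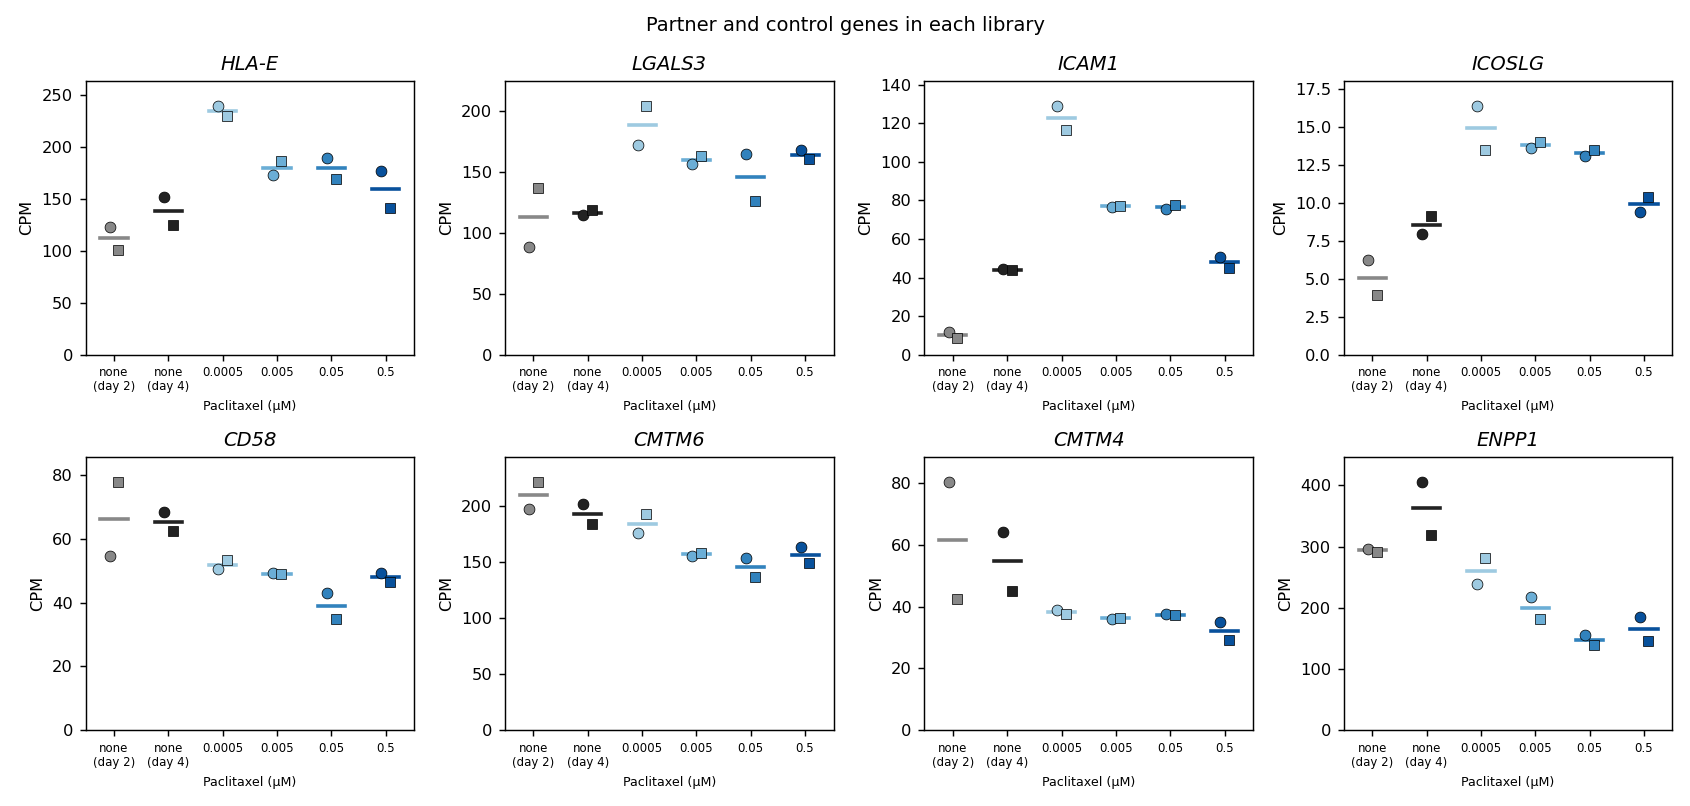
CPM of 8 genes from the lists around the checkpoint ligands, against condition from untreated (none) on days 2 and 4 to the 4 doses of Paclitaxel; circles are replicate 1, squares replicate 2 and lines their mean, on axes that start at 0. HLA-E, LGALS3, ICAM1 and ICOSLG are higher and CD58, CMTM6, CMTM4 and ENPP1 lower in treated than in untreated libraries, with ICAM1 highest at 0.0005 μM.

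Of the inhibitory and related receptors on immune cells that were listed, most were low. TIGIT had at most 5 counts, PDCD1, the gene for PD-1, at most 16, HAVCR2, the gene for TIM-3, at most 18, and CD226 at most 29. CD96, a receptor of PVR known from T and NK cells, was at 226 CPM, from 182 to 321 CPM in untreated and from 156 to 265 CPM in treated libraries. Per length this was a mean of 40.3 FPKM, beside 5.51 FPKM for PVR, and no exon of another annotated gene overlapped CD96. It was not called in treated against untreated libraries (−0.20, SE 0.14, adjusted p = 0.320). Of 7 receptors tested, HAVCR2 (1.37, SE 0.42, adjusted p = 0.0253) and BTLA (2.91, SE 0.73, adjusted p = 0.00810) were higher, both at no more than 18 counts, and SIRPA was lower, where 13.1% of all tested genes were higher and 11.3% lower. The 2 higher ones were among 4 receptors under 1 CPM, a range in which 22.2% of tested genes were called higher. In every untreated library BTLA (at most 0.0368 CPM) and HAVCR2 were below the highest CD80 library (0.129 CPM). CD80 did not pass the low-count filter. BTLA and HAVCR2 passed it through treated libraries, so the count of higher receptors under 1 CPM was partly set by the filter. None of HAVCR2, BTLA and SIRPA was called against C2 alone, and HAVCR2 was not called without C1 replicate 1 (adjusted p = 0.103), C1 replicate 2 (0.0537) or C2 replicate 1 (0.0616).

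The genes whose log2 CPM was most like that of a member over the 12 libraries are given as a description, since all points share the libraries' depth and base composition. CD276 was followed closely by SGPL1 and DNAJC5 (Pearson r of 0.99 each), and 605 of 11086 genes had an r above 0.9. PVR was followed by INPP5F, LONP1 and SREBF2 (r of 0.99 each) among 770 such genes. NT5E was followed by HIBADH, CNN3 and CMTM6 (r of 0.99 each) among 373. CD47 was nearest to RPS6KA3 (0.97), RCAN1 and PLLP (0.96 each) among 62, and PDCD1LG2 to FAM162A (0.92), BNIP3P1 (0.91) and GGPS1 (0.90) among 5. CD274 had no gene above 0.9, and its nearest were VKORC1 (0.89), TMEM154 and CRYBG3 (0.87 each).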

How the data were processed

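Per the submitters' processing notes and the methods of the study, reads of 100 bases were trimmed with Trimmomatic 0.39, checked with FastQC 0.11.9 and aligned to GRCh37 with STAR 2.7.5, and unique alignments in exons were counted per gene with Rsubread. The deposited values are whole counts, neither normalized nor pooled. The annotation release and strand setting of the counting are not given in the sources used here, so antisense reads cannot be told apart. The 12 single tables were identical to the series table.

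Symbols were matched for 55665 identifiers. Counts were scaled by TMM and tested in R 4.3.3 with edgeR 4.0.16 (filterByExpr, robust quasi-likelihood fit, two-sided, Benjamini-Hochberg over all 25249 genes, called at an adjusted p under 0.05). The filter could be passed through the libraries of a single condition, so the share of genes under 1 CPM called higher partly reflects it. The biological coefficient of variation was 15.6%. SEs were derived from F, as the size of the log2 fold change over the root of F. Doses and days were compared in the model of 12 libraries, treated against untreated libraries and the slope in fits of their own. DESeq2 1.42.0, other filters and scalings, a replicate block, offsets and leaving out each library were alternatives. The procedure was tested on simulated data. Named list genes are the up to 5 called genes with the lowest adjusted p per list and the partners of members, with exceptions stated. The members and lists were chosen with earlier results of these data known. ADORA3, CD24 and PECAM1 are not analysed here, and some genes that the rules would name are not reported here. Totals are counts, and intervals cover the spread of these libraries.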

Additional observations from a re-analysis of the deposited data

How the results depend on the processing

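Members called at each dose against C2 (0 at all 4 doses) became 2 at 0.005 μM and 2 at 0.5 μM with only the 4 samples of a comparison fitted, and 1 at 0.05 μM and 2 at 0.5 μM with a minimum of 1 count in total. GC and length offsets gave 1 at 0.05 μM, 2 at 0.5 μM and 2 for the slope, and DESeq2 gave 1 at 0.05 μM and 2 for the slope, where the minimum of 1 count gave 1. Against C2 only, 1 member was called in treated libraries in place of 3. Leaving out 1 library gave 0 to 2 members at 0.005 μM, 0 to 3 at 0.05 μM, 0 to 3 at 0.5 μM, 0 to 2 between the untreated days and 0 to 3 in treated against untreated libraries, where the 0 came without C2 replicate 1.

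All genes called at 0.0005 μM (592) became 1072 with DESeq2, 1480 with a minimum of 1 count, 2624 with 4 samples and 1240 with offsets. At 0.005 μM (827) the last 3 gave 1909, 2592 and 1419, and at 0.5 μM (1596) 2807, 2578 and 2573. Between C2 and C1 (82) DESeq2 gave 239, the minimum of 1 count 390, the 4 samples 0 and the offsets 201, and for the slope (773) DESeq2, 1 count and offsets gave 1645, 1462 and 1449. The 6155 genes of treated against untreated libraries became 3408 against C2 only. Leaving out 1 library gave 144 to 2552 at 0.0005 μM, 85 to 3316 at 0.005 μM, 321 to 4843 at 0.05 μM (2100), 129 to 5046 at 0.5 μM, 47 to 2682 between the days and 123 to 990 for the slope. The lowest counts against C2 came without C2 replicate 1, and the highest without a C1 library.

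The replicate numbers were not taken to pair the libraries: differences between replicates correlated between conditions with r from −0.60 to 0.68, above 0.1 in 8 of 15 pairs of conditions. These mixed values cannot settle whether replicates of the same number share a batch. With the replicate block 1 member (CD276, adjusted p = 0.0500) was called at 0.5 μM, 420 genes had a called slope, and LGALS9 between the days turned to −0.034.

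Directions turned only for uncalled values. CD47 at 0.0005 μM was 0.0027, 0.010 and 0.073 with 1 count, 4 samples and offsets. With offsets, treated against untreated libraries gave 0.016 for CD274 and 0.026 for CD47. Leaving out 1 library gave these ranges with both signs: at 0.0005 μM CD274 −0.14 to 0.24, CD276 −0.36 to 0.070 and CD47 −0.095 to 0.071; at 0.005 μM PDCD1LG2 −0.10 to 0.41; at 0.5 μM PDCD1LG2 −0.37 to 0.14 and LGALS9 −0.22 to 1.47; between the days PDCD1LG2 −0.066 to 0.70, CD276 −0.32 to 0.66, NT5E −0.11 to 0.082, PVR −0.33 to 0.61 and LGALS9 −0.77 to 0.60; in treated against untreated libraries PDCD1LG2 −0.026 to 0.28; and LGALS9 for the slope −0.18 to 0.12. Of the other member values, 774 kept direction and call, 36 gained a call and 12 lost one. The cause of these shifts was not tested. PDCD1LG2 and LGALS9 rest on no more than 179 and 59 counts per library.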
